A study of Rattus norvegicus with 9 samples.

Results

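Acute phase protease inhibitors are secreted liver proteins that block proteases set free in injury and infection. The 9 genes considered were A2m, Spink1, Serpina1, Serpina3n, Itih1, Itih2, Itih3, Itih4 and Ambp. All probe sets that the platform annotation assigns to one of these symbols were taken, which gave 9 of the 15923 probe sets on the array, for 7 of its 10411 named genes. A2m, Serpina1, Serpina3n, Itih3, Itih4 and Ambp had 1 probe set each and Spink1 had 3, all built on the same transcript accession. No probe set carried the symbol Itih1 or Itih2, so the RNA of these genes is not analysed here. They enter only the promoter counts below. All 9 probe sets lay above the signal floor on all 9 arrays and were tested.

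RNA from whole rat liver had been hybridised to 9 one-colour arrays, 3 in each of 3 groups. Sham-Sham is the control group, and the names of the others give CLP with a sham (Sham-CLP) and CLP with a burn (Burn-CLP). CLP is not spelled out in the labels; in rodent work it commonly means cecal ligation and puncture, a model of abdominal sepsis. Strain, sex, age, burn size and the time of sampling are not given in the sources used here, nor whether each array holds RNA of its own animal. A p-value here therefore measures the spread between samples, which need not be separate animals, and that spread may be technical. The comparisons ask how each injury changed liver RNA against the double sham, and whether the burned group differed from CLP alone.

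Liver cells answer inflammatory cytokines, chiefly interleukin-6 acting through the transcription factor STAT3, with a new pattern of secreted proteins. Alpha-2-macroglobulin, the product of A2m, traps proteases of every class in a molecular cage and is the classic strongly induced inhibitor of the rat. Spink1 encodes a small Kazal-type trypsin inhibitor that is abundant in the pancreas and is also made by inflamed liver. Serpina1 (alpha-1-antitrypsin, the main inhibitor of neutrophil elastase) and Serpina3n (a relative of alpha-1-antichymotrypsin) are serpins, which trap serine proteases by a change of shape. Ambp encodes a precursor that is cut into alpha-1-microglobulin and bikunin, and bikunin is the inhibitory chain of the inter-alpha-inhibitor family. The Itih genes encode the heavy chains of that family, which can be passed on to hyaluronan in the tissue matrix, while the Itih4 protein does not carry bikunin.

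The upstream sequences of 3 members are shown because STAT3 acts through short elements near the start of acute phase genes. The sequences are RefSeq's, build GRCr8, and each runs over the 250 bases before the annotated start, 5′ to 3′ on the strand of the gene. Itih4 is at chr16:6086735-6086984 on the plus strand, Serpina3n at chr6:129088142-129088391 on the plus strand and Spink1 at chr18:36133597-36133846 on the minus strand. Capitals mark a match to any of the 4 motifs searched on both strands, CTGGGAA (an acute phase core element), TTCNNNGAA (the STAT palindrome, which can overlap the first), TTGCNNAA (a C/EBP-type element) and an NF-kB consensus.
Itih4: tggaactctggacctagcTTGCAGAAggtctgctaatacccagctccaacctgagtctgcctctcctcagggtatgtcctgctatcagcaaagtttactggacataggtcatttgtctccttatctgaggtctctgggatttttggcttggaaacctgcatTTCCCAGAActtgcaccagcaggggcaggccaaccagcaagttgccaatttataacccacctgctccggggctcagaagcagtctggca
Serpina3n: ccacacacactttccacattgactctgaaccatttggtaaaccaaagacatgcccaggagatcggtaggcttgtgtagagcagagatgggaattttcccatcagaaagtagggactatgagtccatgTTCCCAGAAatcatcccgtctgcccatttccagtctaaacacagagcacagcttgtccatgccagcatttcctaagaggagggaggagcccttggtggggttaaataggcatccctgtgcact
Spink1: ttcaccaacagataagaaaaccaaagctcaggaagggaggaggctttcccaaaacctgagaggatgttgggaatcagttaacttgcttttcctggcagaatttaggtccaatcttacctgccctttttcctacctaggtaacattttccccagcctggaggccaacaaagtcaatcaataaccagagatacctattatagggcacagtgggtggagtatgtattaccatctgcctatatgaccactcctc
Itih4 and Serpina3n both held TTCCCAGAA, which matches the first motif on the opposite strand and the second on the gene's own strand. It lay 89 to 81 bases before the start of Itih4 and 123 to 115 bases before that of Serpina3n. Over all 33469 promoters of this length 9.56% held CTGGGAA, 7.67% held TTCNNNGAA, 9.22% held TTGCNNAA and 0.314% held the NF-kB consensus. Among the 8 member genes with a promoter entry the counts were 2, 2, 2 and 0, and the TTGCNNAA matches were in Itih4 and Itih2. A2m had no promoter entry, so its upstream sequence was not searched and these counts do not cover it. The Spink1 window held none (0) of the 4. A match is a string of letters and does not show binding.

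The members fell into separate classes by their Sham-Sham signal and by the size of their difference. Both classes were set with thresholds on the measured values and are a description, with no test between them. A probe set was called a strong inducer if its log2 signal differed by at least 2 in either CLP group, and already high if its Sham-Sham mean lay at or above the 95th percentile of the 13535 tested probe sets. A2m and 2 Spink1 probe sets were strong inducers. Serpina1, Serpina3n, Itih3, Itih4 and Ambp were already high, at percentiles of 99.9, 99.6, 99.96, 99.9 and 99.8. No probe set was in both classes, and Spink1 1368446_at was in neither. The first of these was largely set in advance. The already high probe sets had Sham-Sham means of log2 14.13 to 14.77, beside a mean of 15.09 over all arrays for albumin. Albumin lay near the top of the normalized scale, and a rise of log2 2 would have put each of them above it. Only a fall could thus have placed them in both classes. The values next to the thresholds were log2 2.65 (inside) and 1.21 (outside) for the difference, and the 99.6 (inside) and 80.4 (outside) percentile for the level. A probe set's signal also depends on its probes, so these percentiles order signals and not amounts of RNA. In Sham-CLP the strong inducers had a median log2 difference of 3.36 and the already high probe sets 0.03, against 0.00 over all probe sets tested. In Burn-CLP the medians were 3.23, -0.04 and 0.01. The strong inducers were picked for a large difference, and the already high probe sets had little room to rise. The gap between these medians therefore does not show that the 2 classes responded differently.

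**Figure D1:**
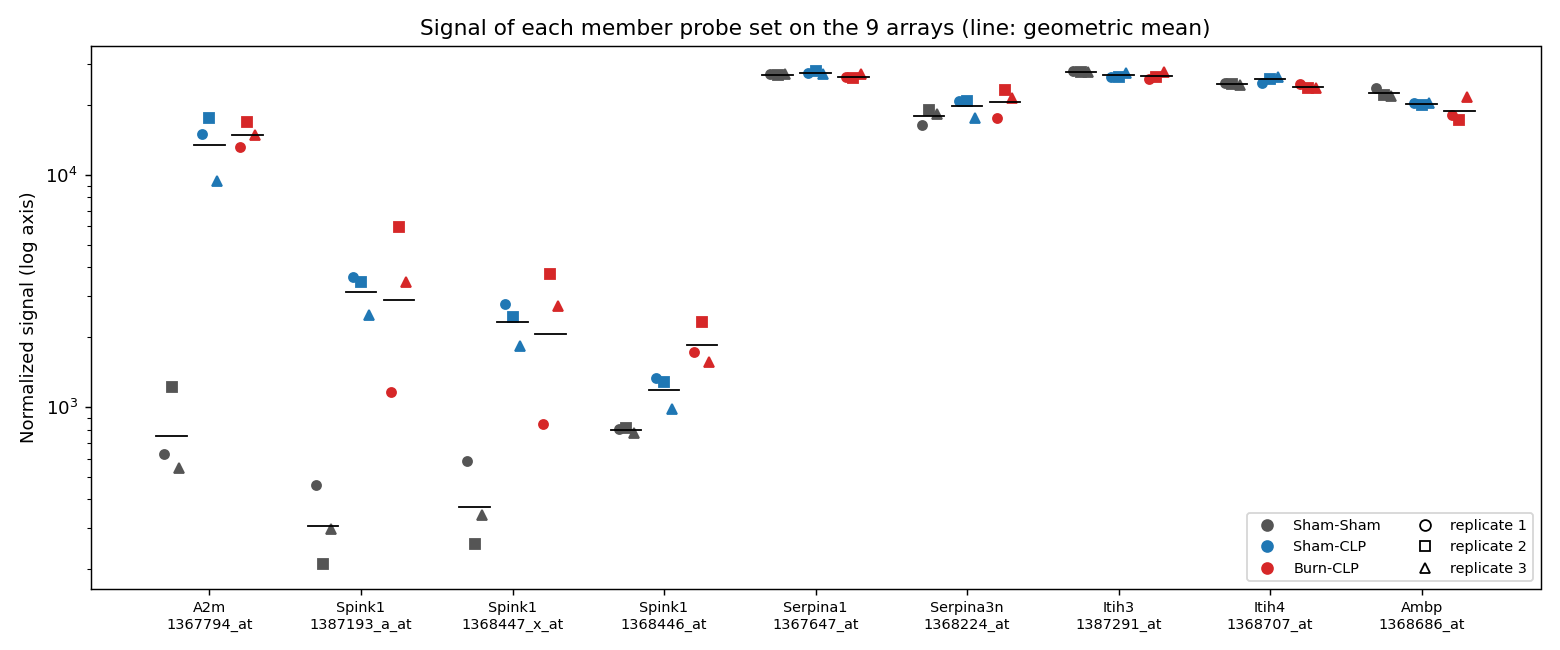
Normalized signal (log axis) of the 9 probe sets on each of the 9 arrays, with symbols for the replicate number, colours for the groups and a line at each group's geometric mean. A2m and Spink1 lay higher on all CLP arrays than on any Sham-Sham array, while the 5 probe sets on the right lay between 16400 and 28179 on all 9.

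Single arrays stood apart before any gene was considered. Correlation between arrays, over normalized log2 signals, averaged 0.890 for Sham-Sham 1 and 0.922 to 0.949 for each of the others. Sham-Sham 3 was nearer to every Sham-CLP array (0.954 to 0.966) than to its own group, where the values were 0.897 for array 1 and 0.948 for array 2. Deposited array medians ran from 205 to 268.1. Results that rest on single arrays are given below without them.

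Counted over the members, 1 of 9 probe sets passed in Sham-CLP, where 0.0591% of all tested probe sets did, and 3 of 9 passed in Burn-CLP, where 0.746% did. All 4 calls were rises, against 0.0443% and 0.325% of tested probe sets called higher and 0.0148% and 0.421% called lower. In Burn-CLP against Sham-CLP 0 of 9 passed by limma, where 0.0148% of all did, and 1 had an unadjusted p under 0.05, where 9.09% of all did. Without regard to the test, the groups did not overlap for 4 member probe sets that were higher and 2 that were lower in Sham-CLP, with 8.10% and 8.65% of all tested probe sets. In Burn-CLP they did not overlap for 4 higher and 1 lower, with 11% and 10.5%. In Burn-CLP against Sham-CLP they did not overlap for 1 higher, Spink1 1368446_at, and 1 lower, Itih4, with 9.61% and 9.22%. The Burn-CLP count fell to 1 when array 1 or 2 of Sham-Sham, array 1 or 2 of Sham-CLP, or Burn-CLP 2 was left out, and was 2 without Burn-CLP 3. The Sham-CLP count was 2 without Sham-Sham 3 or Burn-CLP 2 and 3 without Burn-CLP 1. The shares of all probe sets moved with single arrays too. In Sham-CLP 8 probe sets were called in all, against 347 of 13425 without Sham-Sham 3 and 4 to 13 without any other array. In Burn-CLP 101 were called, against 645 of 13425 without Sham-Sham 3, 221 without Burn-CLP 3 and 19 to 75 without any other array. Both comparisons share the Sham-Sham arrays.

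**Figure D2:**
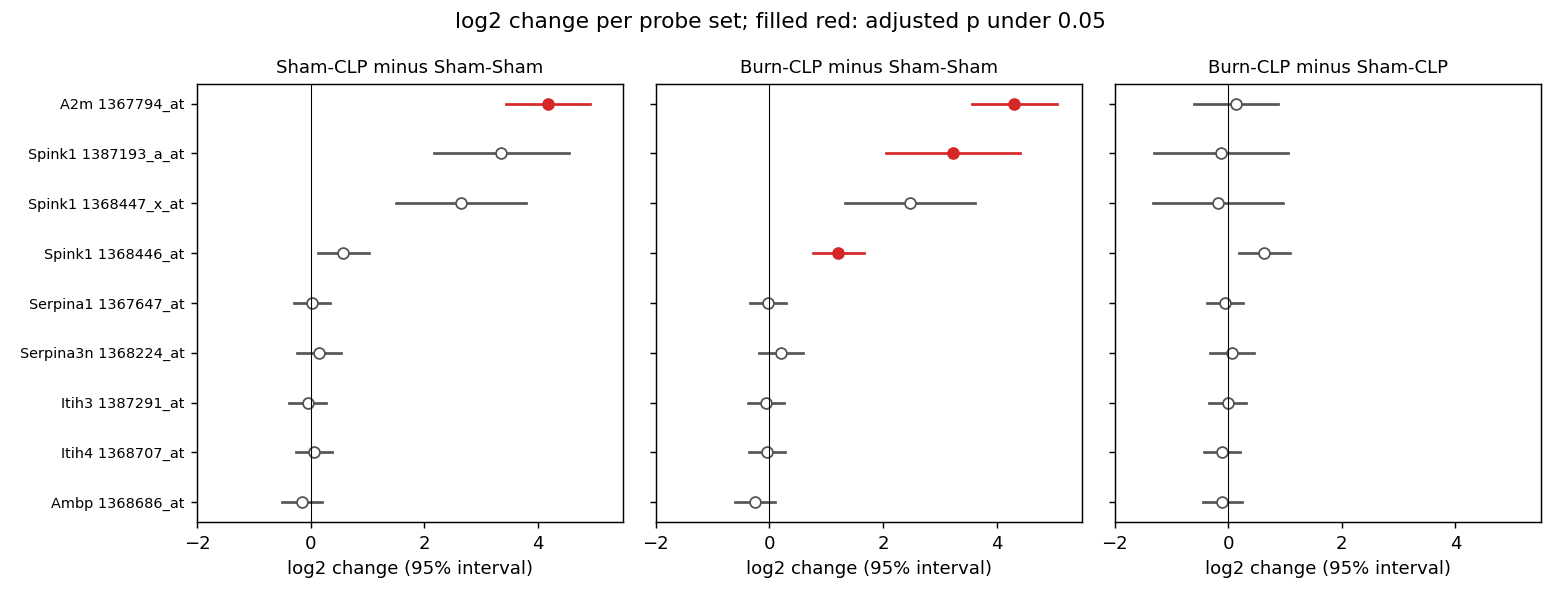
log2 change of each member probe set with its 95% interval in the 3 comparisons, filled red where the adjusted p was under 0.05. A2m passed in both comparisons with Sham-Sham and 2 of the 3 Spink1 probe sets passed in Burn-CLP; the intervals of the 5 already high probe sets all crossed 0.

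Liver RNA of A2m was higher after CLP with or without a burn, by about the same factor. The normalized signal was 629, 1222 and 544.5 on Sham-Sham arrays 1, 2 and 3. It was 14961, 17662 and 9377 in Sham-CLP and 13144, 16960 and 14817 in Burn-CLP. The lowest CLP array, Sham-CLP 3, thus read well above the highest control, Sham-Sham 2, and the CLP groups overlapped each other. On the array as a whole, A2m moved from rank 1776 to 3938 of 15866 probe sets in Sham-Sham up to rank 60 to 179 in Sham-CLP, with 65 to 108 in Burn-CLP.

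The mean A2m signal was 799 ± 369 (SD, n = 3) in Sham-Sham, 13999.8 ± 4225.5 in Sham-CLP and 14973 ± 1913 in Burn-CLP. The log2 change was 4.18 ± 0.33 (SE, 95% interval 3.44 to 4.92, limma, adjusted p = 0.00184) in Sham-CLP, an 18.1-fold rise with an interval of 10.8 to 30.2. In Burn-CLP it was 4.32 ± 0.33 (3.57 to 5.06, limma, adjusted p = 0.000913), a 19.9-fold rise with an interval of 11.9 to 33.3. The difference between the CLP groups was 0.14 ± 0.33 (-0.60 to 0.88, limma, adjusted p = 0.944), so a burn effect between a 0.658-fold and a 1.84-fold level was inside the interval. The direction of that small difference turned to -0.02 with the deposited scaling.

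Spink1 was measured by 3 probe sets that did not read alike. At 1387193_a_at the normalized signal was 460.4, 210.8 and 297.3 in Sham-Sham, 3619, 3463 and 2481 in Sham-CLP, and 1159, 5986 and 3458.5 in Burn-CLP. All 6 CLP arrays lay above the 3 controls, but Burn-CLP 1 read less than any Sham-CLP array while Burn-CLP 2 read more than all of them. At 1368447_x_at the signal was 583, 256.5 and 342 in Sham-Sham, 2792, 2439 and 1839.8 in Sham-CLP, and 849, 3739 and 2735 in Burn-CLP. The order of the arrays within each group was the same at these 2 probe sets, whose correlation over the 9 arrays was 0.995.

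At the third probe set, 1368446_at, the Spink1 signal was 804, 814 and 773 in Sham-Sham, 1330.5, 1284 and 980.3 in Sham-CLP, and 1731, 2319 and 1569 in Burn-CLP. Here the 3 groups did not overlap at all, with Sham-CLP in the middle. The Sham-Sham arrays were much closer together than at the other Spink1 probe sets, with a coefficient of variation of 2.71% against 39.3% at 1387193_a_at and 43.0% at 1368447_x_at. Burn-CLP 1, the lowest of its group at the other probe sets, lay between the other Burn-CLP arrays here. The correlation of 1368446_at over the 9 arrays was 0.792 with 1387193_a_at and 0.754 with 1368447_x_at.

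In Burn-CLP, Spink1 rose 9.40-fold at 1387193_a_at (log2 change 3.23 ± 0.53 SE, 95% interval 2.05 to 4.42, limma, adjusted p = 0.0354) and 2.32-fold at 1368446_at (1.21 ± 0.20, 0.76 to 1.66, adjusted p = 0.0357). At 1368447_x_at the difference was 2.47 ± 0.51 (1.33 to 3.61) and did not pass (adjusted p = 0.06). In Sham-CLP none (0) of the Spink1 probe sets passed by limma, although all 3 had an unadjusted p under 0.05. The differences were 3.36 ± 0.53 at 1387193_a_at (2.18 to 4.54, adjusted p = 0.0838), 2.65 ± 0.51 at 1368447_x_at (1.5 to 3.79, adjusted p = 0.158) and 0.58 ± 0.20 at 1368446_at (0.13 to 1.02, adjusted p = 0.355). That Spink1 passed in 1 group and not in the other does not show a difference between them. Tested directly, Burn-CLP minus Sham-CLP was -0.12 ± 0.53 at 1387193_a_at (limma, adjusted p = 0.97), -0.18 ± 0.51 at 1368447_x_at (0.955) and 0.64 ± 0.20 at 1368446_at (0.405), the last with no overlap between the groups.

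The Spink1 calls depended on single arrays. In Burn-CLP the adjusted p at 1387193_a_at was 0.0103 without Burn-CLP 1, with a log2 change of 3.90, and 0.105 without Burn-CLP 2, with 2.71. Leaving out Sham-Sham 1 (0.0635) or Sham-Sham 2 (0.0956) also ended the call, as did leaving out Sham-CLP 1 (0.062), Sham-CLP 2 (0.0678) and Burn-CLP 3 (0.054). At 1368446_at, leaving out any of 6 arrays ended the call, with 0.0887 for Sham-Sham 1, 0.0864 for Sham-Sham 2 and these values for the rest: Sham-CLP 1 (0.0629), Sham-CLP 2 (0.0678), Burn-CLP 1 (0.0949) and Burn-CLP 2 (0.119). In Sham-CLP 1387193_a_at passed without Sham-Sham 3 (0.0366), Burn-CLP 1 (0.0136) or Burn-CLP 2 (0.0436), and 1368447_x_at passed without Burn-CLP 1 (0.0449). Arrays outside a comparison enter it through the normalization and the shared spread.

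**Figure D3:**
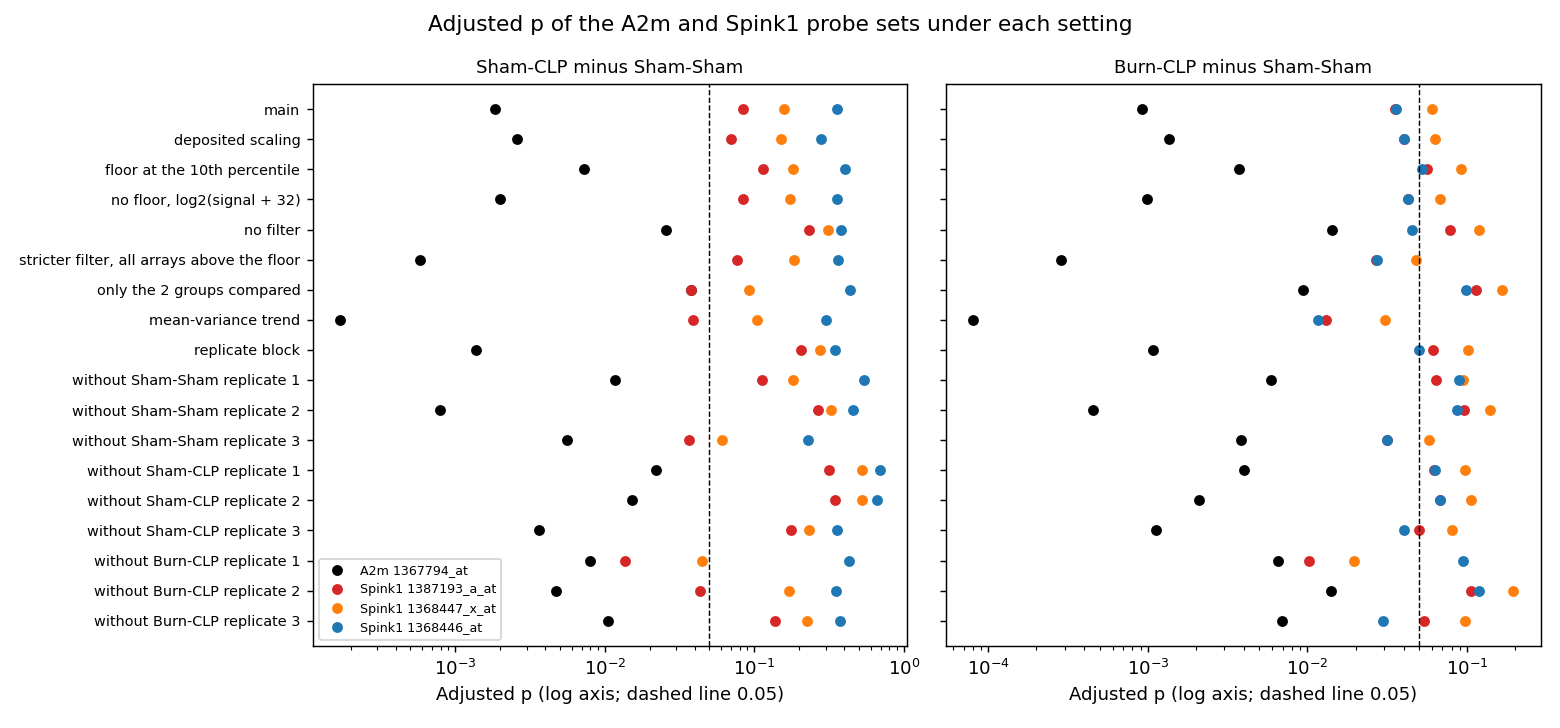
Adjusted p (log axis, dashed line at 0.05) of the A2m and Spink1 probe sets for the main setting and the 17 alternatives, in both comparisons with Sham-Sham. A2m stayed left of the line at every setting, up to 0.0378 in Sham-CLP and 0.0143 in Burn-CLP, while each Spink1 probe set lay right of it at some.

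A second trypsin inhibitor gene, Spink1l, lies next to Spink1 in the annotation, and their windows before the start were 99.6% identical over 239 aligned bases with 9 gap positions. Its only probe set read 7047, 4987 and 4487 in Sham-Sham, 8165, 6907 and 6613.5 in Sham-CLP and 7187, 9708 and 9335 in Burn-CLP. It differed by 0.41 ± 0.22 in Sham-CLP (limma, adjusted p = 0.483) and by 0.68 ± 0.22 in Burn-CLP (adjusted p = 0.148), so neither passed. How far the Spink1 and Spink1l probe sets bind each other's RNA was not tested.

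Because Spink1 is a pancreatic gene, the pancreatic acinar markers were read beside it. Of 16 markers on the array, Cel, Pnliprp1, Pnliprp2 and Prss2 were at the floor on all 9 arrays. The summed marker signal was 2563 to 3238 in Sham-Sham against 2051 to 2215 in Sham-CLP, while Burn-CLP gave 1966 to 2314. The part of pancreatic RNA in the Spink1 signal was not tested. None (0) of the 10 tested markers passed in either comparison by limma, with 6 in Sham-CLP and 2 in Burn-CLP at an unadjusted p under 0.05, as had 11.7% and 19.9% of all tested probe sets. Of the 6, 5 were lower and 1, the elastase gene Cela2a (named after its value was seen), was higher at 0.69 ± 0.27; both of the 2 were lower. The brightest, the elastase gene Cela1, differed by -0.23 ± 0.51 in Sham-CLP and -0.67 ± 0.51 in Burn-CLP, and the carboxypeptidase gene Cpb1 by -0.05 ± 0.28 and -0.28 ± 0.28.

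The serpins and the inter-alpha-inhibitor genes were among the brightest probe sets in all 3 groups and none (0 of 5) passed in any comparison by limma. Serpina1 ranked 11 to 12 of 15866 in Sham-Sham against 8 to 11 in Sham-CLP, while Burn-CLP gave 11 to 15. Its normalized signal was 27137, 26930.0 and 27137 in Sham-Sham, 27488, 28179 and 27137 in Sham-CLP, and 26343, 26089.5 and 27137 in Burn-CLP. The groups shared values, and the difference in Sham-CLP was 0.03 ± 0.14 (95% interval -0.29 to 0.34). The Burn-CLP difference was -0.03 ± 0.14 (-0.35 to 0.29), and with the deposited scaling it was 0.00316. As fold levels the intervals ran from 0.819 to 1.27 and from 0.787 to 1.22. They do not take in the limit that quantile normalization sets near the top of the arrays, described below.

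Serpina3n ranked 50 to 70 in Sham-Sham against 39 to 60 in Sham-CLP, while Burn-CLP gave 26 to 60. It read 16399.9, 19058.5 and 18293 in Sham-Sham, 20917.9, 20917.9 and 17662 in Sham-CLP, and 17662, 23308.5 and 21509 in Burn-CLP. In each CLP group 2 arrays lay above all controls and the remaining one lay among them. It differed by 0.14 ± 0.17 (-0.24 to 0.53, limma, adjusted p = 0.756) in Sham-CLP and 0.21 ± 0.17 (-0.18 to 0.60, adjusted p = 0.517) in Burn-CLP.

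Among the inter-alpha-inhibitor genes, Ambp had the largest differences after normalization, both downward, though in Sham-CLP the direction turned to 0.09 with the deposited scaling. It read 23609, 22213 and 21871 in Sham-Sham, 20409.8, 20116 and 20409.8 in Sham-CLP, and 18182, 17245 and 21640 in Burn-CLP. Neither CLP group overlapped the controls after normalization, but the differences of -0.15 ± 0.16 (-0.50 to 0.20, limma, adjusted p = 0.712) and -0.25 ± 0.16 (-0.60 to 0.10, adjusted p = 0.389) did not pass. The heavy chain gene Itih3 read 27780 to 28179 in Sham-Sham against 26548 to 27488 in Sham-CLP, while Burn-CLP gave 25906 to 27780, with differences of -0.06 ± 0.14 (0.21 with the deposited scaling) and -0.07 ± 0.14. Itih4 read 24394 to 25006 in Sham-Sham against 25006 to 26548 in Sham-CLP, while Burn-CLP gave 23609 to 24644, with differences of 0.06 ± 0.14 and -0.04 ± 0.14. Itih4 and Itih3 are neighbouring genes, and their correlation over the 9 arrays was 0.04, whereas that of Itih3 with Ambp was 0.89; the points share groups and normalization.

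**Figure D4:**
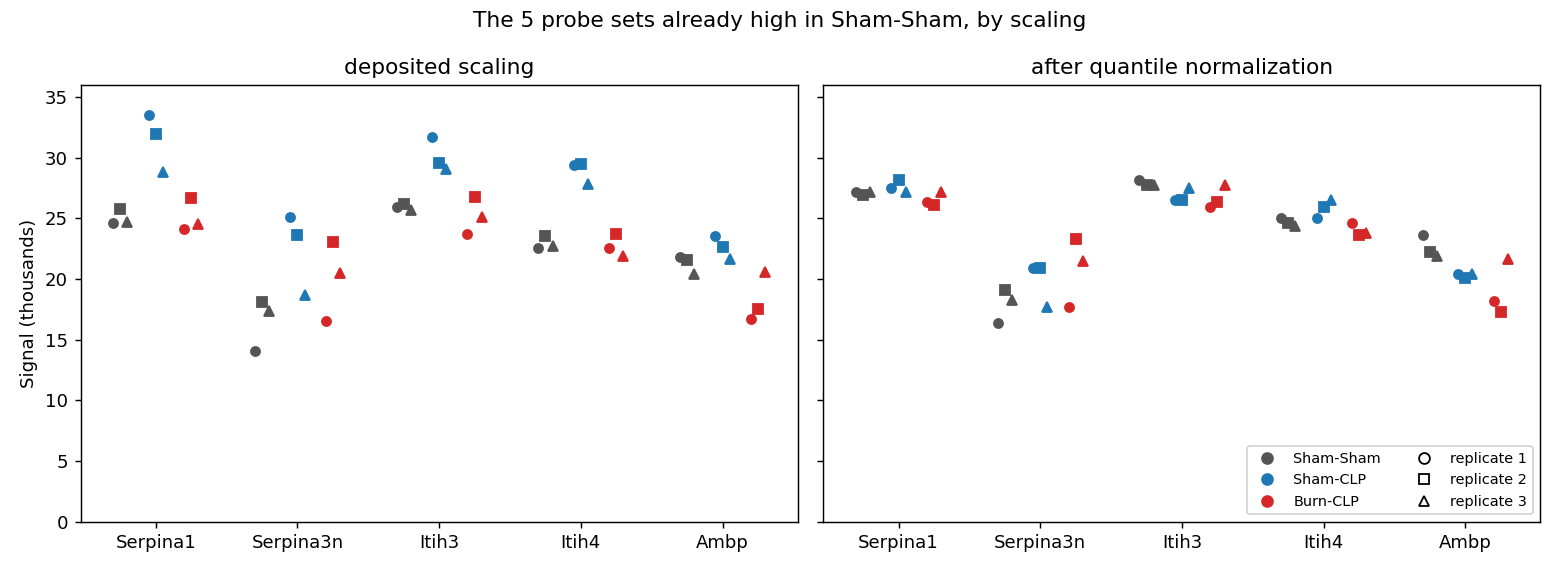
Signal (in kilo-units, axis from 0) of the 5 already high probe sets on each array, as deposited (left) and after quantile normalization (right). As deposited, the Sham-CLP arrays lay above all Sham-Sham arrays for Serpina1, Serpina3n, Itih3 and Itih4. The share of all probe sets that did so under that scaling was not counted. After normalization this separation was gone for Serpina1, Serpina3n and Itih4, and for Itih3 the Sham-CLP arrays lay below all Sham-Sham arrays.

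The picture for these bright probe sets changed with the scaling. Quantile normalization lets a probe set near the top move only with its rank, and these 5 held ranks 8 to 70 on all arrays. As deposited, Serpina1 read 24632, 25783 and 24679 in Sham-Sham, 33554, 31959 and 28823 in Sham-CLP, and 24107, 26649 and 24558.5 in Burn-CLP. The Sham-CLP arrays stood above both other groups. With the deposited scaling the difference in Sham-CLP was 0.33 ± 0.15 for Serpina1, 0.44 ± 0.20 for Serpina3n, 0.34 ± 0.15 for Itih4, 0.21 ± 0.15 for Itih3 and 0.09 ± 0.16 for Ambp, which turned the direction for Itih3 and Ambp. None (0) of the 5 passed by limma, with adjusted p from 0.345 to 0.813, where 4 of all 13523 tested probe sets did. Of the 5, 1, Itih4, had an unadjusted p under 0.05. The 5% brightest tested probe sets had a median of 0.20 there while all tested probe sets had one of -0.08, a shift upward that other bright probe sets shared. In Burn-CLP the deposited scaling gave 0.00, 0.27, -0.01, -0.05 and -0.22 for the same genes in the same order. In Burn-CLP against Sham-CLP it gave -0.32 for Serpina1, -0.17 for Serpina3n, -0.35 for Itih4, -0.26 for Itih3 and -0.31 for Ambp, beside a median of -0.17 over the 5% brightest and 0.11 over all tested probe sets. Relative to the latter the differences were -0.44, -0.28, -0.46, -0.37 and -0.43. None (0) of the 5 passed by limma, and 1, Itih4, had an unadjusted p under 0.05. For neither comparison was the share of all probe sets with an unadjusted p under 0.05 counted under this scaling.

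As deposited, the 5 probe sets read from 43.8% to 82.6% of the brightest probe set of their array. After normalization the room above them was small, with Sham-Sham means of 17917 to 27913 beside 35039 for albumin. A flat normalized signal of these 5 thus does not show that their RNA was unchanged. Whether signals this bright also limit the rise that the deposited values can show was not tested.

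Within each injured group A2m and the Spink1 probe sets 1387193_a_at and 1368447_x_at were lowest on the same array. Spink1 1368446_at was lowest there in Sham-CLP, but in Burn-CLP it was lowest on Burn-CLP 3. The counts below are of probe sets and not of separate genes, as all 3 Spink1 probe sets measure the same gene. Sham-CLP 3 was the lowest of its group for A2m, all 3 Spink1 probe sets, Serpina1 and Serpina3n, which is 6 of 9 probe sets. Burn-CLP 2 was the highest of its group for A2m, all 3 Spink1 probe sets and Serpina3n, which is 5 of 9, and Burn-CLP 1 the lowest for A2m, 2 of the Spink1 probe sets, Serpina3n and Itih3. In Sham-Sham the order was different, with A2m highest on Sham-Sham 2 and Spink1 1387193_a_at and 1368447_x_at lowest there.

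The genes whose signals ran most like A2m over the 9 arrays were sought among 8604 probe sets above the floor on all arrays, as a description without a test. They were Lcn2 (lipocalin 2, an iron-siderophore binding protein), Tmem63a, Mcfd2 (a partner of the cargo receptor that exports secreted proteins from the endoplasmic reticulum), Ripk3 (a kinase of necroptosis), Tdo2 (tryptophan dioxygenase) and Dazap1. Their Pearson correlations were 0.985, 0.963, 0.961, 0.953, 0.948 and 0.941. Of these 6 only Lcn2 passed in the comparisons with Sham-Sham, at 4.66 ± 0.24 in Sham-CLP and 4.65 ± 0.24 in Burn-CLP (limma, adjusted p = 6.83e-05 and 6.84e-05). For Spink1 1387193_a_at the nearest were Pgap6, Hpx (hemopexin, the plasma heme carrier), Lcn2, Hook1, Oat (ornithine aminotransferase) and Orm1 (orosomucoid, an acute phase plasma protein), at 0.972, 0.938, 0.938, 0.932, 0.926 and 0.918. These correlations contain the group differences that the arrays share.

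No other protease inhibitor had a called difference from Sham-Sham. Of 39 tested genes 0 passed in either comparison by limma. An unadjusted p under 0.05 was found for 6 in Sham-CLP and 10 in Burn-CLP, where 11.7% and 19.9% of all tested probe sets had one. The median difference was 0.16 and 0.05. The smallest p-values belonged to Serpina6, Serpinb1a, Timp1 and Serpina3c. Serpina6, the corticosteroid carrier and a serpin without inhibitory action, differed by -0.59 ± 0.63 in Sham-CLP and -3.09 ± 0.63 (adjusted p = 0.0591) in Burn-CLP. Serpinb1a, an intracellular inhibitor of neutrophil proteases, differed by 1.02 ± 0.45 and 2.08 ± 0.45 (adjusted p = 0.0681), and Timp1, an inhibitor of matrix metalloproteinases, by 1.70 ± 0.48 and 2.06 ± 0.48 (adjusted p = 0.0762). Serpina3c, of the same gene cluster as Serpina3n, differed by -0.12 ± 0.20 and -0.81 ± 0.20 (adjusted p = 0.081).

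The macroglobulin relatives of A2m were chosen for the following sentences after their values were seen. Pzp, the alpha-1-macroglobulin of the rat, read 25649 to 29279 in Sham-Sham against 28178 to 29279 in Sham-CLP, while Burn-CLP gave 25906 to 29279, and differed by 0.06 ± 0.15 and -0.00 ± 0.15. Mug1, of the single-chain inhibitors of this family, differed by -0.32 ± 0.31 and -0.15 ± 0.31. Neither passed, so of these 3 macroglobulin genes A2m was the one that was called. Pzp read near the top of the arrays, where quantile normalization lets a probe set move only with its rank. A rise of Pzp could thus be missed, and its deposited signals were not compared.

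Among 28 tested proteases that such inhibitors can act on, Tmprss2, a membrane serine protease, was the 1 that passed. It passed in Burn-CLP, where 0.746% of all tested probe sets did, and 0 passed in Sham-CLP, where 0.0591% did. An unadjusted p under 0.05 (limma) was found for 3 in each comparison, beside 11.7% of all in Sham-CLP and 19.9% in Burn-CLP. Tmprss2 fell at least 2.26-fold in Burn-CLP (limma, adjusted p = 0.0306), where all 3 arrays were at the floor, as all 3 were in Sham-CLP (adjusted p = 0.0779). Tmprss2 met the filter of at least 3 arrays above the floor only through Sham-Sham, and its floored arrays had no spread. Its call thus rests on the floor and the filter. The lysosomal cathepsins Ctsl and Ctss differed by 0.65 ± 0.15 (adjusted p = 0.0728) and 0.99 ± 0.25 (adjusted p = 0.0871) in Burn-CLP and by 0.17 ± 0.15 and 0.44 ± 0.25 in Sham-CLP. Chymotrypsinogen Ctrb1 differed by -0.86 ± 0.34 in Sham-CLP and -0.22 ± 0.34 in Burn-CLP, with 3 arrays at the floor. The list's median was 0.01 and -0.06.

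Of 30 tested genes of the signals that induce acute phase proteins, 0 passed by limma in either comparison with Sham-Sham, and 4 and 8 had an unadjusted p under 0.05, beside 11.7% and 19.9% of all tested probe sets. The median difference was 0.20 in Sham-CLP and 0.38 in Burn-CLP. Foxa3, a hepatocyte transcription factor, differed by 0.81 ± 0.18 and 0.58 ± 0.18, and Cish, a feedback inhibitor of cytokine signals, by 1.22 ± 0.37 and 0.67 ± 0.37. The interleukin-1 receptor gene Il1r1 differed by 0.21 ± 0.33 and 1.15 ± 0.33. The cytokine gene Tnf differed by -0.86 ± 0.21 in Sham-CLP, with all 3 arrays at the floor, and by -0.64 ± 0.21 in Burn-CLP. Chosen after their values were seen, Il6r, Stat3 and Socs3 (the interleukin-6 receptor, its transcription factor and its feedback inhibitor) differed by 0.28 ± 0.20, 0.37 ± 0.31 and 0.33 ± 0.26 in Sham-CLP and by 0.52 ± 0.20, 0.50 ± 0.31 and 0.75 ± 0.26 in Burn-CLP. Il6 itself, at the floor on 4 arrays, differed by -0.15 ± 0.29 and -0.60 ± 0.29. The signal-transducing receptor subunit Il6st differed by -0.29 ± 0.18 in Sham-CLP and 0.21 ± 0.18 in Burn-CLP, and the transcription factor Cebpd by -0.18 ± 0.27 and 0.52 ± 0.27. None (0) of these passed.

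Genes of inhibitor clearance, export and hyaluronan binding gave 0 calls among 18 by limma in either comparison with Sham-Sham, with 1 and 4 at an unadjusted p under 0.05, beside 11.7% and 19.9% of all tested probe sets. The medians were 0.01 and -0.05. The smallest p-values belonged to Vcan (a hyaluronan-binding proteoglycan at the floor on 5 arrays, -0.01 ± 0.18 and 0.59 ± 0.18), Cd44 (the hyaluronan receptor, 0.61 ± 0.37 and 1.16 ± 0.37), Surf4 (a cargo receptor, -0.40 ± 0.21 and -0.65 ± 0.21) and Mcfd2 (0.35 ± 0.14 and 0.39 ± 0.14), none of which passed.

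The tissue label was checked against markers. The hepatocyte markers were bright in every group, with a summed signal of 174774 to 189191 in Sham-Sham against 184798 to 189080 in Sham-CLP, while Burn-CLP gave 183700 to 196640, over 8 genes. The brightest, albumin (Alb) and Ass1, differed by -0.01 ± 0.15 and 0.08 ± 0.15 in Sham-CLP and by 0.00 ± 0.15 and 0.26 ± 0.15 in Burn-CLP. In the same order of groups, the 7 neutrophil markers summed to 802 to 1065, 838 to 1147 and 1048 to 2032. The 8 macrophage markers summed to 8802 to 9913, 8982 to 11359 and 10150 to 14132, and the 10 stellate cell markers to 6865 to 7760, 4991 to 7107 and 5100 to 6731. Endothelial markers (7) summed to 3559 to 3978, 3189 to 3864 and 2953 to 3896, and bile duct markers (6) to 1315 to 1489, 1301 to 1414 and 1339 to 1902. Lymphocyte markers (13) gave 2232 to 2885, 2102 to 2253 and 2229 to 2597, and red blood cell markers (5) gave 12951 to 16131, 11673 to 12839 and 10093 to 12135. Only pancreatic markers were at the floor on all 9 arrays. In Burn-CLP S100a9 of the neutrophil list and Dcn of the stellate cell list rose, at 2.80 ± 0.40 and 1.48 ± 0.21 (limma, adjusted p = 0.0239 each), with S100a9 at the floor on 2 Sham-Sham arrays. Of all tested probe sets 0.325% were called higher there. Dcn went against its list, whose median was -0.36 over 10 markers, with 3 lower and only Dcn higher at an unadjusted p under 0.05. The 6 tested neutrophil markers had a median of 0.31, with 2 higher and 0 lower by that cut. In whole liver, fewer cells of a type and less RNA per cell cannot be told apart. The part of other cells in the values of the inhibitor genes was not tested.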

How the data were processed

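The deposited values are linear signal intensities, with 1 value for each probe set on an array. The sources used here do not say by which method the authors obtained them. A common scaling shows in them, with a mean after trimming 2% at each end near 500.2 on all 9 arrays. Centring beyond this scaling is not known. Deposited array medians were 268.1, 244.5 and 215.1 in Sham-Sham, 209.0, 205.0 and 212.4 in Sham-CLP and 235.5, 231.8 and 231.3 in Burn-CLP. Because they spread by more than 10% of their mean, the arrays were quantile normalized, values under the 20th percentile (64.3) were raised to it, and log2 was taken.

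Tests excluded 57 control probe sets. Probe sets above the floor on at least 3 arrays were tested, 13535 in all, with limma 3.58.1 in R 4.3.3, on 1 fit of all 9 arrays. A Benjamini-Hochberg adjusted p-value under 0.05 over all of them was called. With 3 arrays against 3, an exact permutation test cannot give a two-sided p under 0.1 and was not used. In simulated data for Burn-CLP minus Sham-Sham over 13535 probe sets, 32% of changes of log2 1, 84% of log2 2, 92% of log2 3 and 100% of log2 4 were recovered. There 50 changes of each size were planted in normally distributed noise, and 11 probe sets without a planted change were called too. These shares need not hold for the real arrays, whose spread and number of changes can differ. Precision is limited by the number of arrays. The limma fit also draws the spread of each probe set toward that of all tested probe sets. SEs, intervals and p-values therefore hold this shared spread too. For Serpina1 the SD of log2 signal was 0.006, 0.028 and 0.030 in Sham-Sham, Sham-CLP and Burn-CLP, beside an SE of 0.141. No pair of arrays held identical values.

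Symbols came from the supplied platform annotation and were updated through the Entrez identifier. Beside the members, the text names the genes most like A2m and Spink1 in pattern (6 each), called genes and the 4 smallest p-values of each pathway list, and the brightest hepatocyte and pancreatic and all called markers. For lists the brightest probe set of a gene was used. The members and lists were chosen with earlier results of these data known. The alternatives were the deposited scaling, other floors and filters, fits of only the groups compared, a mean-variance trend, the replicate number as a block, and leaving out each array. Promoter sequences were read with Biopython 1.88 from RefSeq, GRCr8.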

Additional observations from a re-analysis of the deposited data

Results flagged for a closer look

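After quantile normalization all 3 Sham-CLP arrays lay above and all 3 Burn-CLP arrays below the Sham-Sham mean of Itih4. As deposited this did not hold, since the Burn-CLP signals of 21860 to 23724 lay on both sides of the Sham-Sham mean of 22931. The difference between the CLP groups was tested and did not pass, at a log2 difference of -0.10 (limma, adjusted p = 0.891), and with the deposited scaling it was -0.35 with the same direction. Ranks, which do not depend on the scaling, were 13 to 18 in Sham-CLP, 18 to 22 in Sham-Sham and 20 to 25 in Burn-CLP.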

How the results depend on the processing

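The calls of A2m held in all 17 alternatives in both comparisons with Sham-Sham, 9 of which leave out 1 array each. The number of member probe sets called in Sham-CLP minus Sham-Sham was 1, and it was 2 with only the 2 groups compared and 2 with a mean-variance trend; it ran from 1 to 3 when each array was left out. In Burn-CLP minus Sham-Sham it was 3, and it was 1 with a floor at the 10th percentile, 1 with only the 2 groups compared, 2 without a filter, 2 with the replicate number as a block, 4 with the stricter filter and 4 with a trend; it ran from 1 to 3 when each array was left out. In Burn-CLP minus Sham-CLP it was 0 at every setting by limma. Of the members' 27 log2 differences, 5 turned their direction with the deposited scaling, none of them called. They were Ambp (0.0912) and Itih3 (0.21) in Sham-CLP minus Sham-Sham, Serpina1 (0.00316) in Burn-CLP minus Sham-Sham, and A2m (-0.0227) and Serpina3n (-0.17) in Burn-CLP minus Sham-CLP. When each array was left out, uncalled differences in Burn-CLP minus Sham-CLP ran through 0, from -0.12 to 0.33 for A2m, -0.66 to 0.53 for Spink1 1387193_a_at, -0.61 to 0.46 for Spink1 1368447_x_at, -0.0197 to 0.18 for Serpina3n and -0.0399 to 0.0107 for Itih3. With the replicate number as a block, 1, 2 and 0 member probe sets were called in the 3 comparisons and 4, 59 and 0 of all probe sets, against 8, 101 and 2 without it. Same-numbered arrays deviated together slightly at most, with correlations of their deviations between -0.03 and 0.08 over 9 pairs. Pairs with different numbers gave -0.07 to 0.04, a somewhat lower range. The labels give no pairing, so the numbers were not treated as one in the main fit. The count over all probe sets in Burn-CLP minus Sham-Sham was 53 with a floor at the 10th percentile, 280 with a trend and 13 with only the 2 groups compared, and it ran from 19 (without Burn-CLP 1 or 2) to 645 (without Sham-Sham 3) when each array was left out. In Sham-CLP minus Sham-Sham it ran from 4 (without Sham-CLP 1) to 347 (without Sham-Sham 3), and in Burn-CLP minus Sham-CLP from 0 to 36 (without Burn-CLP 3).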
